A study of Mus musculus with 26 samples.

Results

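The 68 most abundant transcript clusters of wild-type mouse liver are described here, out of 31469 clusters in the deposited tables. A cluster is a numbered group of transcript isoforms, and members were chosen by their CPM (a level proportional to the share of all counts in a library), taken in where it averaged 1500 or more over the 4 wild-type total RNA libraries. This threshold was reached by 73 clusters, and 5 of them were set aside by the rule because they belong to a block of 8 neighbouring numbers or are the cluster of uc012ath.2, the most counted cluster of every immunoprecipitate. The tables pair no identifier with a gene symbol, so each cluster is called by the identifier of its most counted isoform and nothing is said of what its product does.

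Liver tissue was taken from 3 kinds of mice. The wild type was C57BL/6J fed a normal diet, the high-fat group was the same strain fed a high-fat diet, and the ob/ob group was the strain B6.V-Lepob/J, fed a normal diet, whose mice make no working leptin and grow obese. The study sequenced total liver RNA beside RNA precipitated with an antibody against hnRNPK (IP) from a cytoplasmic extract and from a salt extract of nuclei, after a first pass over beads with control IgG. There were 12 total RNA libraries, which gave 2 units in each of 3 mouse groups once the 2 libraries of each replicate number were summed, 6 cytoplasmic and 6 nuclear IP libraries with 2 per mouse group, and 2 IgG libraries, 1 per compartment, from mixed mice. The ages, sexes and number of animals are not given in the sources used here, and the labels do not say that the replicates were separate animals. Total RNA is whole liver and not the extract that was precipitated, so a difference between IP and total RNA includes the fractionation.

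Hepatocytes make most of the proteins of blood plasma besides the enzymes of intermediary metabolism, and a few very abundant messenger RNAs fill a large part of their cytoplasm. hnRNPK is a ribonucleoprotein with KH domains that binds stretches of cytosine in RNA, moves between nucleus and cytoplasm, and takes part in splicing, RNA stability and translation. The abundant clusters take a large share of the counts in total liver RNA. A comparison with both immunoprecipitates asks how they are represented in hnRNPK IP of each compartment. Which of them are messenger RNA is not given in the tables. In tissue samples, fewer cells of a type and less RNA per cell cannot be told apart.

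Counts per library ranged from 25597300 to 41731900 for total RNA, from 8834060 to 12068900 for IP of the cytoplasm and from 5336060 to 10581100 for IP of the nucleus. IgG gave 338469 counts in the cytoplasm and 3116790 in the nucleus. High-fat replicate 2 stood apart in both immunoprecipitates: its composition scaling factors were 0.649 in the cytoplasm and 0.602 in the nucleus, and its most counted cluster took 28.8% and 41.2% of the counts. The wild-type replicates differed from each other in some of the most abundant clusters, as given below. Levels called scaled CPM carry the TMM composition scaling of edgeR over all units and IgG libraries, while plain CPM does not.

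Per length, the highest of the 68 clusters in wild-type total RNA was uc008yaz.2, with 49499 ± 2542 TPM (a level corrected for transcript length; SD over 4 libraries of 2 replicate numbers). It was followed by uc009fmy.2 at 28364 ± 4938 TPM and uc009vey.1 at 28273 ± 2038 TPM, whose values overlapped. Cluster uc009vez.1 came next in this order, with 22111 ± 2733 TPM. By counts alone the order is different, because a longer transcript yields more fragments: uc008yaz.2 had 58407 CPM and came first in both orders. The values that chose the clusters are a description and carry no test. Just inside the threshold lay uc009fmw.2 with 1525 CPM, and just outside it uc007mbp.2 with 1496 CPM.

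The abundant clusters were shorter than the median of those tested. Their median transcript length was 1659 nt, with quartiles of 1232.75 and 2552 nt and a range of 430 to 13909 nt, while the 13516 clusters tested over all units had a median of 2733 nt and all 31469 one of 1591 nt. A single isoform was listed for 44 of the 68 (64.7%), against 34.4% of the clusters tested and 61.4% of all 31469. The rule counts fragments without regard to length, so a long transcript reaches it at a lower level per length. All 68 passed the filters on low counts of both models.

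Numbering placed several of the clusters side by side. Of the 68, 18 lay in 5 runs of adjacent numbers, the largest being 8 clusters from 30110 to 30117, with 3 clusters from 6155 to 6157, 3 from 17561 to 17563, and pairs at 18960 to 18961 and at 24424 to 24425. The pair at 18960 to 18961 stands close to the left-out numbers. Cluster uc007ams.1, number 117, and cluster uc009vfa.1, number 30114, both 842 nt long, held the same count in all 26 libraries, so the 68 clusters are 67 distinct measurements. RSEM, the program behind the deposited values, divides reads among similar transcripts, and the values of this pair cannot be told apart. The sequences of the runs were not compared.

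The 68 clusters took a larger share of every total RNA library than of any immunoprecipitate. Total RNA chose them, so part of this follows from the choice. They took 33.9% to 39.6% of the counts in total RNA, with a median of 36.9%. In the cytoplasmic immunoprecipitates their share was 23.4% to 30.7%, and in the nuclear ones 18.9% to 24.4%. In the single IgG libraries they took 27.4% of the counts in the cytoplasm (95% Wilson interval 27.2% to 27.5%) and 18.6% in the nucleus (18.56% to 18.65%), where the intervals cover counting error only. Ranges of total RNA and either IP did not overlap, but those of the 2 immunoprecipitates did. The IgG share lay inside the range of IP in the cytoplasm and just under it in the nucleus.

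**Figure D1:**
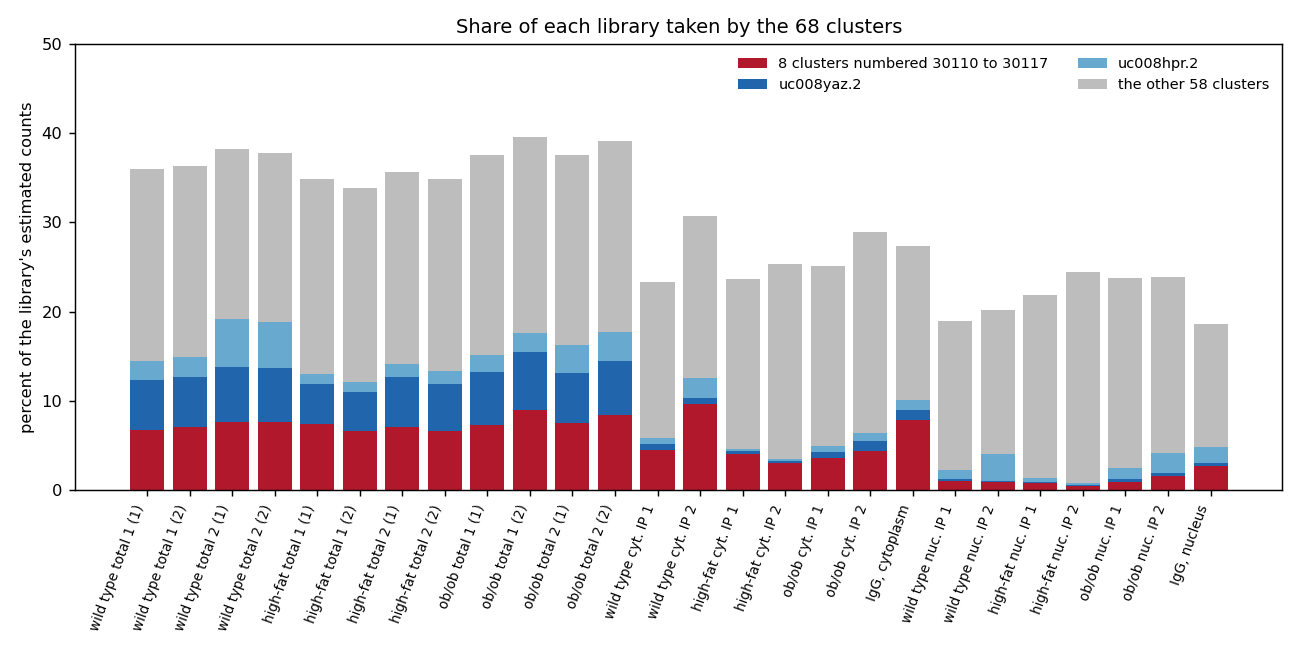
Percent of each library's estimated counts taken by the 68 clusters, 1 bar per library, with the 8 clusters numbered 30110 to 30117, uc008yaz.2, uc008hpr.2 and the remaining 58 stacked. The 12 total RNA bars reach 33.9% to 39.6% and the 6 nuclear IP bars 18.9% to 24.4%, and the part of uc008yaz.2 shrinks from 4.37% to 6.53% in total RNA to 0.0692% to 0.327% in nuclear IP.

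On the per-length scale the picture was less even. TPM shares were 40.1% to 44.2% for total RNA, 30.6% to 39.5% for cytoplasmic IP and 28.3% to 51.1% for nuclear IP, so here the nuclear range spanned that of total RNA. The 51.1% was high-fat replicate 2, which stands apart, and the next highest nuclear library, high-fat replicate 1, had 40.5%. The number of the clusters that themselves reached 1500 CPM was 58 to 64 for total RNA, 37 to 41 for IP from the cytoplasm and 13 to 24 for that from the nucleus. For IgG the number was 40 in the cytoplasmic library and 32 in the nuclear one. The 8 clusters of the largest run took 6.56% to 8.99% of total RNA, 3.04% to 9.69% of cytoplasmic IP and 0.469% to 1.53% of nuclear IP, and 7.80% and 2.64% of the IgG libraries.

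In total RNA the abundant clusters stood near their wild-type level in ob/ob and high-fat mice, with a few exceptions. Wild-type total RNA chose the clusters, so these differences are descriptions. The median log2 fold change was -0.01 in ob/ob and -0.14 in high-fat mice, against 0.00 and 0.01 over the 15487 clusters tested in total RNA. In ob/ob, 3 of the 68 were at least 2-fold higher and 6 at least 2-fold lower, while 8.86% and 2.73% of all clusters were. High-fat mice had 0 at least 2-fold higher and 3 at least 2-fold lower, against 3.42% and 1.97% of all. The high-fat median was -0.02 with scaling by library size only.

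Cluster uc008tbs.2, number 18961, was the lowest of the 68 in ob/ob relative to wild type. It read 2112 and 3431 scaled CPM in the wild-type units, 2151 and 2782 in the high-fat units, and 188 and 322 in the ob/ob units. Both ob/ob units lay far under the other 4. The ob/ob level was 10.6-fold lower than wild type as a description, with a log2 fold change of -3.40. Its neighbour uc008tbr.1, number 18960, read 6877 and 2705 scaled CPM in wild type, 9487 and 7765 in high-fat and 749.8 and 1396 in ob/ob, again with both ob/ob units lowest. Its log2 fold change in ob/ob was -2.14, and ran from -2.69 to -1.27 when each unit was left out in turn. At the other end stood uc009phd.1, with 2878 and 787 scaled CPM in wild type and 3670 and 6198 in ob/ob, and uc009nin.2, with 2498 and 1108 in wild type and 4703 and 3444 in ob/ob. Their log2 fold changes were 1.44 and 1.19, and wild-type replicate 2 was the lowest unit for both. Without wild-type replicate 1 the values were 2.71 for uc009phd.1 and 1.94 for uc009nin.2, and without wild-type replicate 2 they were 0.77 and 0.69.

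For the clusters with the lowest ratios of high-fat to wild-type total RNA, the wild-type replicates also differed from each other. The lowest ratios were those of uc007lll.2, with 686 and 2498 scaled CPM in wild type and 485 and 464 in high-fat, and of uc008hpr.2, with 17834 and 48430 in wild type and 8718 and 11289 in high-fat. Their log2 fold changes of -1.71 and -1.69 became -0.54 and -0.85 without wild-type replicate 2, the unit with the high reading in both. The highest ratios were those of uc008tbr.1 at 0.86 and uc009nin.2 at 0.77, which became 1.73 and 1.52 without wild-type replicate 1 and 0.32 and 0.28 without wild-type replicate 2. For uc009nin.2 the high-fat units read 2869 and 3239 scaled CPM.

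The 1 contrast in total RNA that gives no weight to the libraries used in the choice is that of ob/ob against high-fat mice. It was taken from a fit of all 6 units. The wild-type units thus entered its filter, scaling and estimate of spread. By edgeR's quasi-likelihood test with Benjamini-Hochberg adjustment, uc008tbs.2 was the 1 of 68 that passed the 0.05 threshold, with a log2 fold change of -3.26 (SE 0.38, adjusted p = 0.0370), lower in ob/ob in 4 of 4 unit pairs. Over all 15487 clusters 0.491% passed. At an unadjusted p under 0.05 there were 18 of the 68, with 3393 of all 15487. DESeq2 called 18 of the 68 and 1426 of all 31469 clusters. It was given every cluster without the filter, and 19818 of them had counts in these units. The neighbour uc008tbr.1 had an adjusted p of 0.0791 in edgeR. Leaving out any 1 of the 4 ob/ob and high-fat units kept the log2 fold change of uc008tbs.2 between -3.73 and -2.92. The call was lost each time, but calls over all clusters also fell each time. Such a fit has 1 unit left in a group, so it cannot decide whether the call depends on a single unit.

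**Figure D2:**
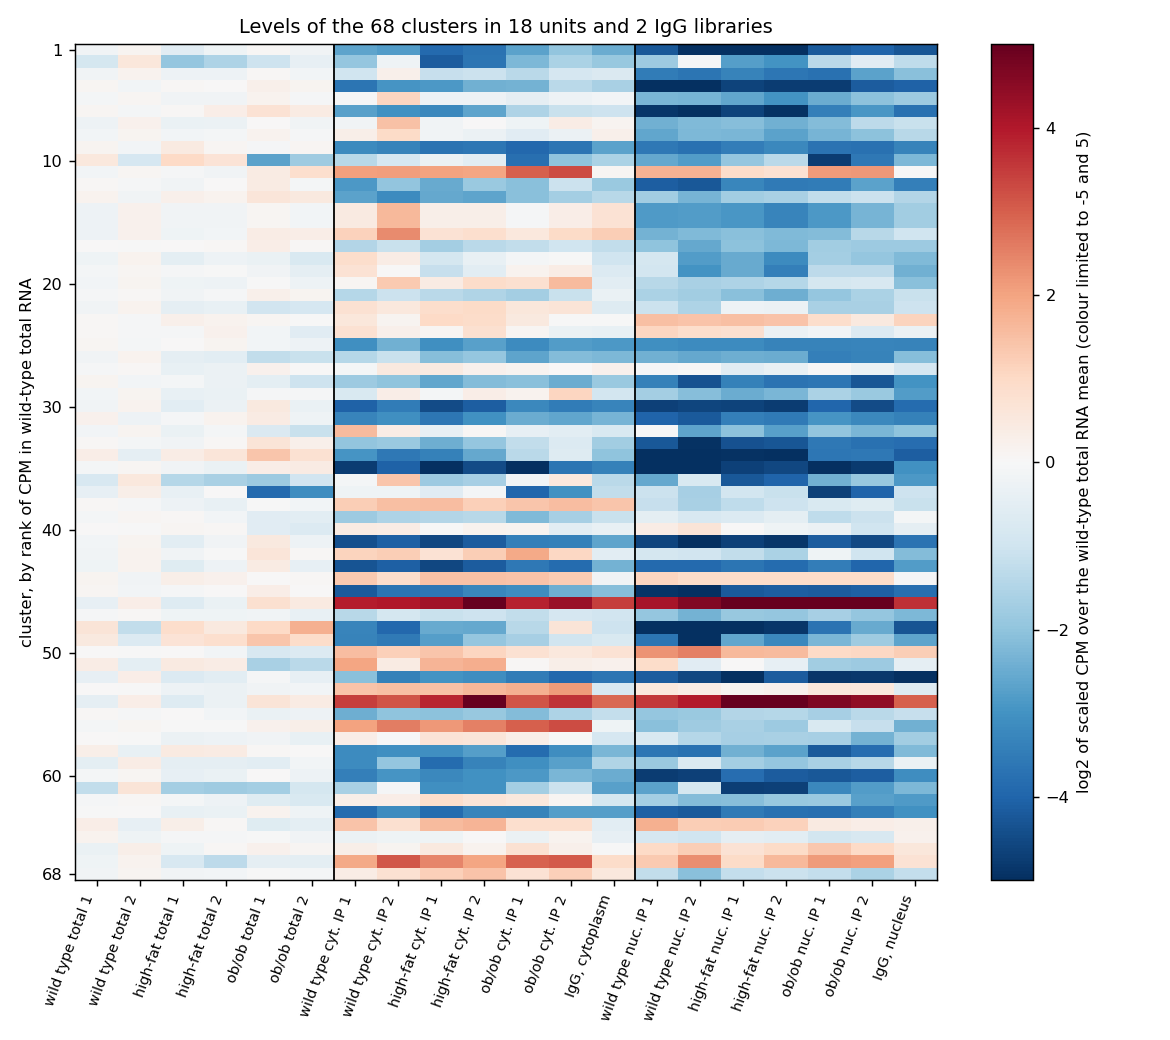
Level of each of the 68 clusters (rows, ordered by CPM in wild-type total RNA) in the 18 units and 2 IgG libraries (columns), as log2 of scaled CPM over the wild-type total RNA mean, with colours limited to -5 and 5. Total RNA columns are pale, nuclear IP columns are mostly blue (lower), and a few rows are red in every IP and IgG column, among them uc029sug.1 and uc009sgd.1.

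Against total RNA, the cytoplasmic immunoprecipitates held a mixed selection of the abundant clusters. This contrast gave no weight to wild-type total RNA and averaged ob/ob and high-fat mice. The wild-type total RNA units still entered the filter, scaling and estimate of spread of its fit. By edgeR's test 19 of the 68 were higher and 32 lower in cytoplasmic IP, together 51, where 73.5% of all clusters passed in either direction, 34.3% higher and 39.2% lower, so the share called lay near the background. The median log2 fold change was -0.36, with quartiles of -2.61 and 0.60, against -0.11 over all clusters tested. Clusters chosen as high in total RNA of one mouse group are also high in the others, so an excess of lower values in IP is not independent of the choice. Scaling by library size only gave 13 higher and 37 lower (2701 and 6979 over all clusters) and moved the median of all clusters to -0.65.

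Cluster uc029sug.1, 532 nt long, had the largest rise in both immunoprecipitates. It read 1267 and 1561 scaled CPM in high-fat total RNA and 3474 and 2678 in ob/ob total RNA. Cytoplasmic IP units read 36867 and 103862 in high-fat and 28374 and 40067 in ob/ob, so every IP unit lay above every total RNA unit. The log2 fold change was 4.47 (SE 0.39, adjusted p = 8.59e-08 in edgeR), higher in 8 of 8 unit pairs. The second rise was that of uc009sgd.1, 3881 nt long, with a log2 fold change of 3.96 (SE 0.37, adjusted p = 2.13e-07 in edgeR). These clusters also stood high in IgG, as given below.

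The lowest in cytoplasmic IP were uc012hdm.1, number 30116 in the largest run, and uc007mzf.2, the longest of the 68 at 13909 nt. Cluster uc012hdm.1 read 2519 and 2284 scaled CPM in high-fat total RNA and 3645 and 3757 in ob/ob total RNA, but 87.0 and 130 in high-fat cytoplasmic IP and 85.5 and 228 in ob/ob cytoplasmic IP. Its log2 fold change was -4.60 (SE 0.30, adjusted p = 4.75e-09 in edgeR), and that of uc007mzf.2 was -3.96 (SE 0.16, adjusted p = 5.53e-11 in edgeR). Both were lower in 8 of 8 unit pairs. These calls and those of the 2 rising clusters held without each unit in turn. Cytoplasmic IgG was low as well, with log2 differences from the same total RNA of -3.49 for uc012hdm.1 and -2.82 for uc007mzf.2.

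Nuclear immunoprecipitates held most of the abundant clusters at a lower level than total RNA. In ob/ob and high-fat mice 10 of the 68 were higher and 53 lower in nuclear IP by edgeR's test, against 69.1% of all clusters called in either direction, 29.6% higher and 39.6% lower. The median log2 fold change was -1.94, with -0.19 over all clusters. As above, the choice of clusters favours this direction. Cluster uc029sug.1 rose by 5.55 on the log2 scale (SE 0.41, adjusted p = 1.94e-08 in edgeR) and uc009sgd.1 by 4.95 (SE 0.39, adjusted p = 4.01e-08 in edgeR).

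At the low end, uc009iyl.2 read 3689 and 4308 scaled CPM in high-fat total RNA and 7361 and 4847 in ob/ob total RNA, but 91.9 and 57.6 in high-fat nuclear IP and 234 and 237 in ob/ob nuclear IP. Its log2 fold change was -5.30 (SE 0.39, adjusted p = 1.85e-08 in edgeR). The next lowest, uc009phd.1, had a log2 fold change of -5.11 (SE 0.57, adjusted p = 1.56e-06 in edgeR). Both were lower in 8 of 8 unit pairs, and the 4 calls named for nuclear IP held without each unit in turn. Nuclear IgG was low as well, with log2 differences from the same total RNA of -4.94 for uc009iyl.2 and -5.42 for uc009phd.1.

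In wild-type mice, where total RNA chose the clusters, the same contrasts are descriptions. The medians were -0.27 in cytoplasmic IP and -1.98 in nuclear IP on the log2 scale. Clusters uc029sug.1 and uc009sgd.1 were again at the top, with 3.92 and 3.28 in the cytoplasm and 4.35 and 3.73 in the nucleus. The bottom of the cytoplasmic order held uc012hdm.1 at -4.40 and uc008pph.1 at -4.27, a cluster of the run 17561 to 17563. In the nucleus it held uc009phd.1 at -6.45 and uc009fmy.2 at -6.22. Cluster uc008yaz.2 read 45216 and 55586 scaled CPM in wild-type total RNA, 8152 and 7274 in cytoplasmic IP and 2638 and 1233 in nuclear IP.

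An edgeR contrast of contrasts asked whether IP over total RNA differed between ob/ob and high-fat mice. None of the 68 and 0 of 13516 clusters passed in either compartment, and at an unadjusted p under 0.05 there were 6 of the 68 in the cytoplasm, with 1083 of all clusters, and 7 in the nucleus, with 1066 of all. DESeq2 was not run on these differences. With the replicate number as a block, added after the data were seen, 1 of the 68 passed in each compartment, with 6 and 7 of all clusters.

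The comparison of nuclear with cytoplasmic IP gives no weight to the libraries that chose the clusters. They still entered the filter, scaling and estimate of spread of its fit. Here 52 of the 68 were lower and 9 higher in the nucleus by edgeR's test, a total of 61 called, where 64.6% of all clusters were called, 33.6% lower and 31% higher. The median of the 68 was -1.19 on the log2 scale and that of all clusters -0.04. Of the 68, 41 were lower and 6 higher in all 12 unit pairs within mouse groups, against 24.7% and 21.3% of all clusters. Unit by unit, with each nuclear unit set against the cytoplasmic one of the same group and number, 54 and 53 of the 68 were lower in wild type, 49 and 55 in high-fat and 56 and 58 in ob/ob.

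**Figure D3:**
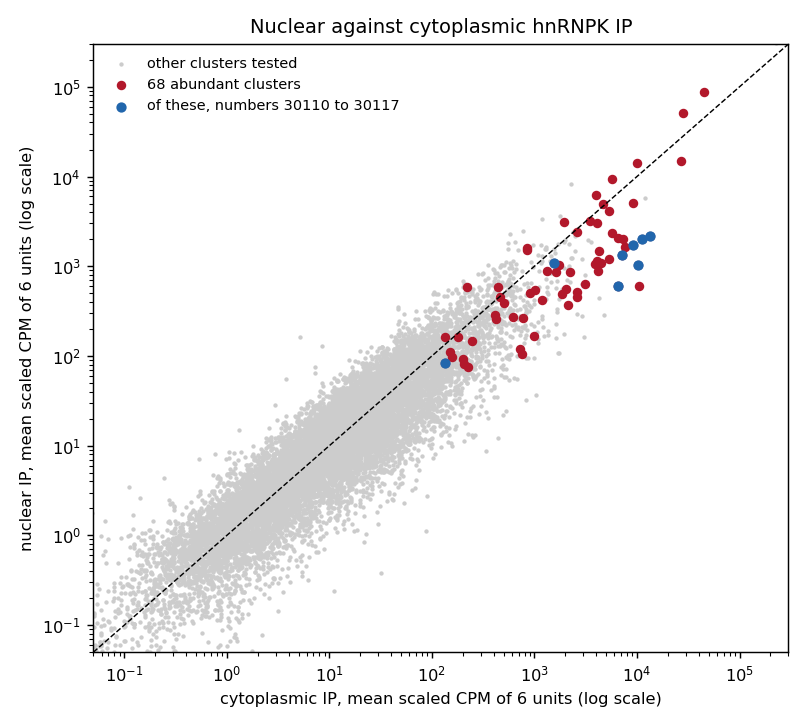
Mean scaled CPM of the 6 nuclear IP units against that of the 6 cytoplasmic IP units, log scales, 1 point per cluster tested, with the line of equal level dashed. The 68 abundant clusters (red, and blue for numbers 30110 to 30117) lie mostly below the line, where 52 were called lower in the nucleus, and all 8 blue points lie below it.

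Cluster uc009dts.1, 1232 nt long, was the lowest in the nucleus. Its cytoplasmic units read 6691 and 9922 scaled CPM in wild type, 7587 and 9482 in high-fat and 13105 and 16166 in ob/ob. Its nuclear units read 390 and 484, 547 and 475, and 974 and 747. No nuclear unit came near a cytoplasmic one, and the log2 fold change was -4.14 (SE 0.16, adjusted p = 4.80e-11 in edgeR). The second lowest was uc007ams.1 with -3.36 (SE 0.20, adjusted p = 2.69e-09 in edgeR), whose counts equal those of uc009vfa.1. Control IgG had the same order, with 1442 scaled CPM in the cytoplasm and 313 in the nucleus for uc009dts.1. For uc007ams.1 it read 7011 and 1289. Cluster uc009dts.1 lay above IgG in all 6 IP units of each compartment, and uc007ams.1 in 1 cytoplasmic and 0 nuclear units.

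The highest in the nucleus was uc009qtn.2, 2781 nt long. It read 183 and 429 scaled CPM in wild-type cytoplasmic IP against 451 and 987 in nuclear IP, 112 and 162 against 499 and 421 in high-fat, and 196 and 246 against 523 and 627 in ob/ob. Within each mouse group both nuclear units were above both cytoplasmic ones. The log2 fold change was 1.45 (SE 0.24, adjusted p = 7.01e-05 in edgeR). Cluster uc009enk.1 followed with 0.87 (SE 0.12, adjusted p = 1.56e-05 in edgeR). These 4 calls held without each of the 12 IP units in turn.

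Transcript length moved with this difference. Spearman's rho between length and the nuclear over cytoplasmic log2 fold change was 0.33 across the 68 clusters and 0.30 across all 13516 tested, as a description over clusters that share libraries. In each length class the 68 had a lower median than all clusters tested. Under 1000 nt it was -1.67 for 14 abundant clusters against -0.92 for all, and from 1000 to 2000 nt -1.42 for 28 against -0.44. From 2000 to 4000 nt it was -0.53 for 18 against 0.02, and above that -0.46 for 8 against 0.31. The part of length in the result was not tested.

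The 8 clusters from 30110 to 30117 were all lower in nuclear than in cytoplasmic IP, by log2 fold changes of -3.36 to -0.54, with adjusted p from 2.69e-09 to 0.00516 in edgeR. Summed, they read 53222 and 119285 scaled CPM at the lower and higher wild-type cytoplasmic unit, against 9436 and 9686 in the wild-type nucleus. In ob/ob cytoplasmic IP 4 of the 8 were lower than in wild type by edgeR's test, where 6.83% of all clusters were, with log2 fold changes of all 8 from -1.17 to 0.13. The lowest of them, uc009vew.1, lost its call without wild-type replicate 2, at -0.45 (adjusted p = 0.399 in edgeR). The wild-type cytoplasmic units themselves differed more than 2-fold in this sum. The 3 clusters from 17561 to 17563 were lower than total RNA in both immunoprecipitates, with -3.92 to -3.78 for cytoplasmic IP and -4.54 to -3.62 for nuclear IP, and adjusted p up to 1.23e-09 and 1.56e-09 in edgeR. The 3 clusters from 6155 to 6157 had adjusted p of 0.653 to 0.910 in cytoplasmic IP against total RNA, and were lower in nuclear IP by -2.01 to -1.77.

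Between ob/ob and wild type, 17 of the 68 differed in cytoplasmic IP, 9 higher and 8 lower, where 12.8% of all clusters were called by edgeR, 5.94% higher and 6.83% lower. Cluster uc008tbs.2 read 2418 and 2394 scaled CPM in wild type and 179 and 344 in ob/ob, the same side as in total RNA. It fell by 3.25 on the log2 scale (SE 0.40, adjusted p = 0.000383 in edgeR), and this call held without each unit. Cluster uc009phd.1 read 188 and 121 scaled CPM in wild type and 703 and 2846 in ob/ob, with a log2 fold change of 3.48 (SE 0.74, adjusted p = 0.00924 in edgeR). Here too no ob/ob unit reached down to a wild-type one, but ob/ob replicate 2 was far above replicate 1. Control IgG read 891 scaled CPM for uc009phd.1 and 1176 for uc008tbs.2. Of the 6 cytoplasmic IP units, 1 lay above IgG for uc009phd.1 and 4 for uc008tbs.2. Whether a change in IP between mouse groups is particular to hnRNPK was not tested.

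Further named calls in this comparison were uc009iyl.2, with 2.22 (SE 0.48, adjusted p = 0.00946 in edgeR), and uc009vew.1, number 30110, with -1.17 (SE 0.35, adjusted p = 0.0396 in edgeR). Cluster uc009iyl.2 lay above IgG in 2 of the 6 cytoplasmic IP units and uc009vew.1 in 1. Without ob/ob replicate 2 the count of 17 became 3, the value of uc009phd.1 became 2.12 (adjusted p = 0.114 in edgeR), that of uc009iyl.2 1.79 (0.0862) and that of uc009vew.1 -1.42 (0.104). Without wild-type replicate 2 the count became 9, and the same clusters gave 3.19 (0.0629), 1.93 (0.0658) and -0.45 (0.399). Cluster uc009vew.1 also missed the threshold without ob/ob replicate 1, at -0.94 (0.208), and with library size scaling. The split of 9 higher and 8 lower became 9 and 5 with the size factors of DESeq2 (884 and 840 over all clusters). It was also 9 and 5 without the cluster of uc012ath.2 (882 and 873), and 6 and 2 with library size only (435 and 179). A fit without 1 unit leaves 1 in its group, and fewer of all clusters were called too without each unit in turn.

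Nuclear IP gave 18 of 68 between ob/ob and wild type, 9 higher and 9 lower, where 13.7% of all clusters were called by edgeR, 5.5% higher and 8.23% lower. Cluster uc008tbs.2 read 1325 and 882 scaled CPM in wild type and 108 and 175 in ob/ob, with a log2 fold change of -3.01 (SE 0.40, adjusted p = 0.000792 in edgeR) that held without each unit. Cluster uc009phd.1 read 33.6 and 9.23 in wild type and 143 and 316 in ob/ob, with 3.35 (SE 0.75, adjusted p = 0.0114 in edgeR). Both ob/ob units were above both wild-type units, and total RNA of this cluster had the same order of groups. Cluster uc009iyl.2 had 2.14 (SE 0.48, adjusted p = 0.0114 in edgeR) and uc008oqs.1 -2.18 (SE 0.50, adjusted p = 0.0121 in edgeR). Of the 6 nuclear IP units, 1 lay above IgG for uc008tbs.2, 2 each for uc009phd.1 and uc009iyl.2, and 3 for uc008oqs.1.

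The counts of calls in nuclear IP also depended on single units, and fewer of all clusters were called too without each unit in turn. Without ob/ob nuclear IP replicate 2 the count of 18 became 3, with uc009phd.1 at 2.69 (adjusted p = 0.0924 in edgeR), uc009iyl.2 at 2.15 (0.0618) and uc008oqs.1 at -2.12 (0.108). Without wild-type replicate 2 it became 8, with uc009phd.1 at 2.71 (0.0826) and uc009iyl.2 at 1.58 (0.0793), and without wild-type replicate 1 uc008oqs.1 was at -1.23 (0.123). With library size only, 5 were higher and 3 lower, where 378 and 212 of all clusters were. A direct test of whether the ob/ob difference was unlike in nucleus and cytoplasm called 0 of 68 and 0 of all clusters in edgeR, with 8 of 68 and 1418 of all 13516 at an unadjusted p under 0.05.

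**Figure D4:**
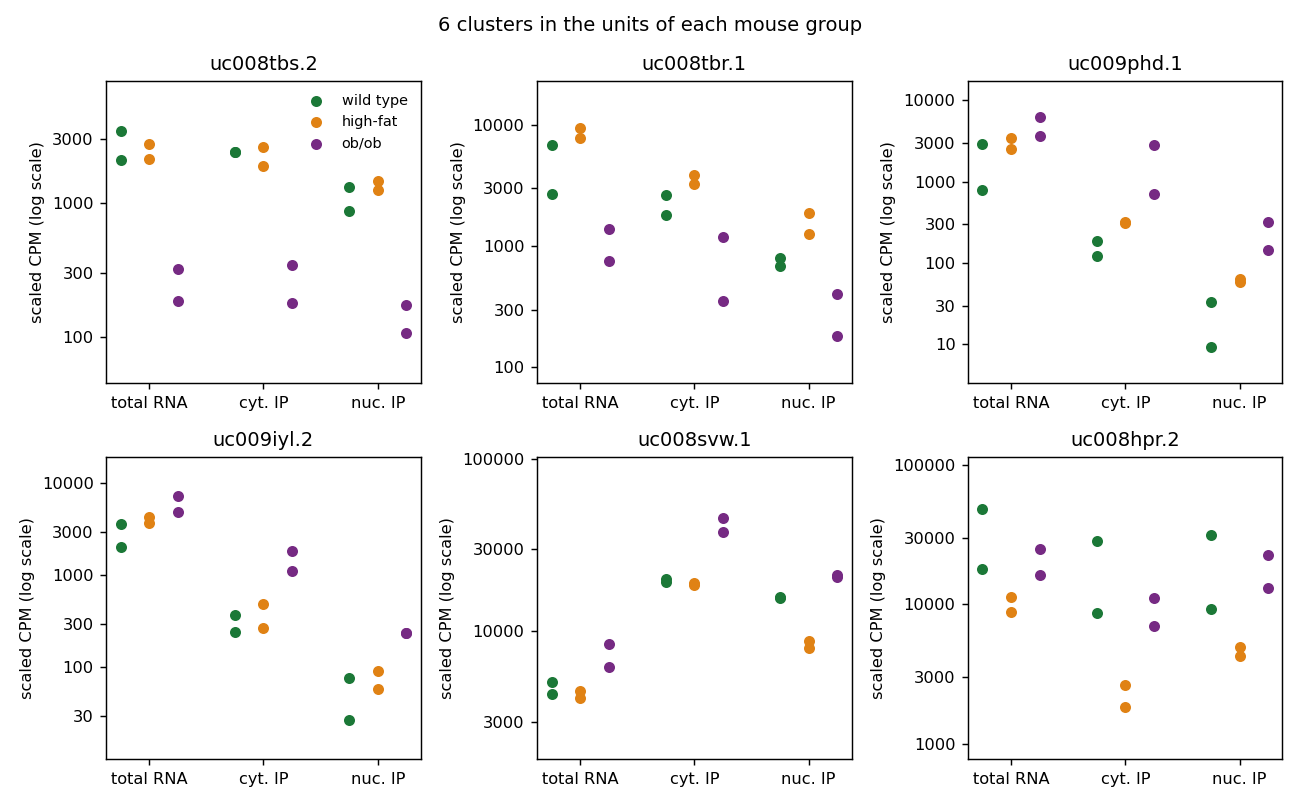
Scaled CPM (log scale) of 6 named clusters in total RNA, cytoplasmic IP and nuclear IP, with 1 point per unit and 2 units for each of wild type, high-fat and ob/ob mice. Both ob/ob points of uc008tbs.2 lie below all other points in each kind of library (188 and 322 scaled CPM in total RNA), while the points of uc008hpr.2 show the gap between the wild-type replicates (17834 and 48430 in total RNA).

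Between high-fat mice and wild type, 2 of the 68 were lower and 0 higher in cytoplasmic IP, where 1.85% of all clusters were called by edgeR, 0.888% lower and 0.962% higher. At an unadjusted p under 0.05 there were 22 of the 68, with 2591 of all 13516. Cluster uc008hpr.2 read 8706 and 28202 scaled CPM in wild type and 1830 and 2651 in high-fat, with a log2 fold change of -3.08 (SE 0.66, adjusted p = 0.0376 in edgeR). Cluster uc007mut.1 read 2636 and 7543 in wild type and 804 and 905 in high-fat, with -2.61 (SE 0.60, adjusted p = 0.0427 in edgeR). For both, wild-type replicate 2 was the highest unit. Without it the count was 0 and the values were -2.01 (adjusted p = 0.170 in edgeR) and -1.68 (0.212). The count was also 0 without high-fat replicate 1, with -2.83 (0.254) and -2.53 (0.263), and without high-fat replicate 2, with -3.33 (0.142) and -2.65 (0.176), but 11 without wild-type replicate 1. Over all clusters, too, calls fell without wild-type replicate 2 or either high-fat unit and rose without wild-type replicate 1. With library size only, 1 was called, with 23 of all clusters, and uc007mut.1 had an adjusted p of 0.0513 in edgeR.

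In nuclear IP 9 of the 68 differed between high-fat and wild type, 5 higher and 4 lower, where 5.37% of all clusters were called by edgeR, 2.23% higher and 3.14% lower. The lowest were uc007lll.2, with 252 and 859 scaled CPM in wild type and 60.6 and 62.9 in high-fat, and uc007mut.1, with 479 and 1699 in wild type and 149 and 177 in high-fat. Their log2 fold changes were -3.21 (SE 0.66, adjusted p = 0.0172 in edgeR) and -2.78 (SE 0.61, adjusted p = 0.0224 in edgeR). The highest were uc009sgd.1 and uc029sug.1. Cluster uc029sug.1 read 34947 and 48737 scaled CPM in wild type and 97395 and 198754 in high-fat, the latter in the replicate that stands apart. Their values were 1.79 (SE 0.48, adjusted p = 0.0477 in edgeR) for uc009sgd.1 and 1.77 (SE 0.49, adjusted p = 0.0497 in edgeR) for uc029sug.1. Of the 6 nuclear IP units, 1 lay above IgG for uc007lll.2 and 4 for uc007mut.1, while all 6 did for uc009sgd.1 and uc029sug.1.

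All 4 of these calls were lost without single units. Without high-fat replicate 2 the count of 9 became 0, and uc009sgd.1, uc029sug.1, uc007lll.2 and uc007mut.1 stood at 1.21 (adjusted p = 0.260 in edgeR), 1.21 (0.268), -3.20 (0.111) and -2.88 (0.120). Without high-fat replicate 1 it was 0 as well, with 2.20 (0.0638), 2.18 (0.0688), -3.21 (0.110) and -2.69 (0.130). Without wild-type replicate 2 it was 3, with 2.00 (0.131), 2.02 (0.129), -2.08 (0.116) and -1.61 (0.162), and without wild-type replicate 1 it was 5, with uc009sgd.1 at 1.64 (0.155) and uc029sug.1 at 1.60 (0.163). The adjusted p of uc029sug.1 was 0.0510 with the size factors of DESeq2. Fewer of all clusters were called too without either wild-type unit or high-fat replicate 1. With library size only the split became 2 higher and 11 lower (65 and 1603 over all clusters), as the median of all clusters moved to -0.45. The test of a difference between compartments called 0 of 68 and 0 of all clusters in edgeR, with 11 of 68 and 1840 of all 13516 at an unadjusted p under 0.05.

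Ob/ob and high-fat mice were compared directly as well. In cytoplasmic IP, ob/ob differed from high-fat in 7 of the 68, 5 higher and 2 lower, where 3.57% of all clusters were called by edgeR, 1.6% higher and 1.97% lower. Cluster uc008tbs.2 read 1887 and 2608 scaled CPM in high-fat and 179 and 344 in ob/ob, with a log2 fold change of -3.11 (SE 0.40, adjusted p = 0.000943 in edgeR) that held without each unit. Its neighbour uc008tbr.1 had -2.22 (SE 0.56, adjusted p = 0.0453 in edgeR). On the other side uc009iyl.2 had 1.94 (SE 0.47, adjusted p = 0.0373 in edgeR) and uc009rgj.1 had 1.58 (SE 0.35, adjusted p = 0.0227 in edgeR), with 878 and 1318 scaled CPM of uc009rgj.1 in high-fat against 2835 and 3767 in ob/ob.

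Among the calls named for cytoplasmic IP, those of uc008tbr.1, uc009iyl.2 and uc009rgj.1 were lost without single units. Without high-fat replicate 1 the count of 7 became 1, and they stood at -2.09 (adjusted p = 0.206 in edgeR), 1.58 (0.288) and 1.31 (0.228). Without high-fat replicate 2 it was also 1, with -2.34 (0.114), 2.43 (0.0813) and 1.90 (0.0636). Without ob/ob replicate 2 it was 2, with uc009iyl.2 at 1.51 (0.281) and uc009rgj.1 at 1.34 (0.198), and without ob/ob replicate 1 uc008tbr.1 stood at -1.62 (0.156). Cluster uc008tbr.1 also missed the threshold with library size only, at 0.0563, and without the cluster of uc012ath.2, at 0.0537. The split of 5 higher and 2 lower became 6 and 1, and 5 and 1, under these, with 196 and 53, and 254 and 233, over all clusters. Fewer of all clusters were called too without each unit in turn.

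In nuclear IP ob/ob differed from high-fat in 7 of the 68 again, 2 higher and 5 lower, where 3% of all clusters were called by edgeR, 1.18% higher and 1.83% lower. Cluster uc008tbs.2 read 1459 and 1264 scaled CPM in high-fat and 108 and 175 in ob/ob, with -3.27 (SE 0.40, adjusted p = 0.000818 in edgeR), and this call held without each unit. Cluster uc008tbr.1 had -2.42 (SE 0.57, adjusted p = 0.0383 in edgeR). Cluster uc008svw.1 read 8810 and 8037 scaled CPM in high-fat and 20573 and 21075 in ob/ob, units that lay close together within each group, with 1.30 (SE 0.25, adjusted p = 0.0155 in edgeR). Cluster uc009rgj.1 had 1.65 (SE 0.35, adjusted p = 0.0222 in edgeR). Of the 6 nuclear IP units, 1 lay above IgG for uc008tbs.2, 2 each for uc008tbr.1 and uc009rgj.1, and all 6 for uc008svw.1. With library size only the split turned to 15 higher and 2 lower (1317 and 70 over all clusters), and the median of all clusters moved to 0.49.

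Without ob/ob replicate 1 the count of 7 became 3, with uc008tbr.1 at -1.96 (adjusted p = 0.160 in edgeR) and uc008svw.1 at 1.30 (0.0508). Without ob/ob replicate 2 it became 1, with uc008tbr.1 at -3.10 (0.0807), uc008svw.1 at 1.30 (0.0691) and uc009rgj.1 at 1.39 (0.124). Without high-fat replicate 1 it became 2, with the same clusters at -2.66 (0.0910), 1.39 (0.0879) and 1.82 (0.106), and without high-fat replicate 2 it became 3, with -2.11 (0.168), 1.24 (0.115) and 1.52 (0.156). The test of a difference between compartments called 0 of 68 and 0 of all clusters in edgeR, with 3 of 68 and 687 of all 13516 at an unadjusted p under 0.05. Fewer of all clusters were called too without either ob/ob unit or high-fat replicate 1. The comparisons of ob/ob with high-fat mice share units with those against wild type.

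By the median over the 68 with TMM scaling, control IgG stood near hnRNPK IP, but single clusters differed. The log2 difference of the IP mean from IgG ran from -1.73 to 2.79 in the cytoplasm and from -2.19 to 1.64 in the nucleus. With 1 IgG library per compartment there is no test. In the cytoplasm 19 of the 68 (27.9%) were above IgG in all 6 IP units and 15 below it in all 6, where 44.6% of all clusters were above and 26.4% below. In the nucleus 16 (23.5%) were above and 23 below, where 23.1% and 23.3% of all clusters were. At least 2-fold above IgG in all 6 units were 7 for the cytoplasm and 0 for the nucleus, with 24.3% and 2.26% of all clusters. Scaled by library size only, 11 and 2 were above IgG in all 6 units, with 28.9% and 3.72% of all clusters, so these counts depend on the scaling.

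**Figure D5:**
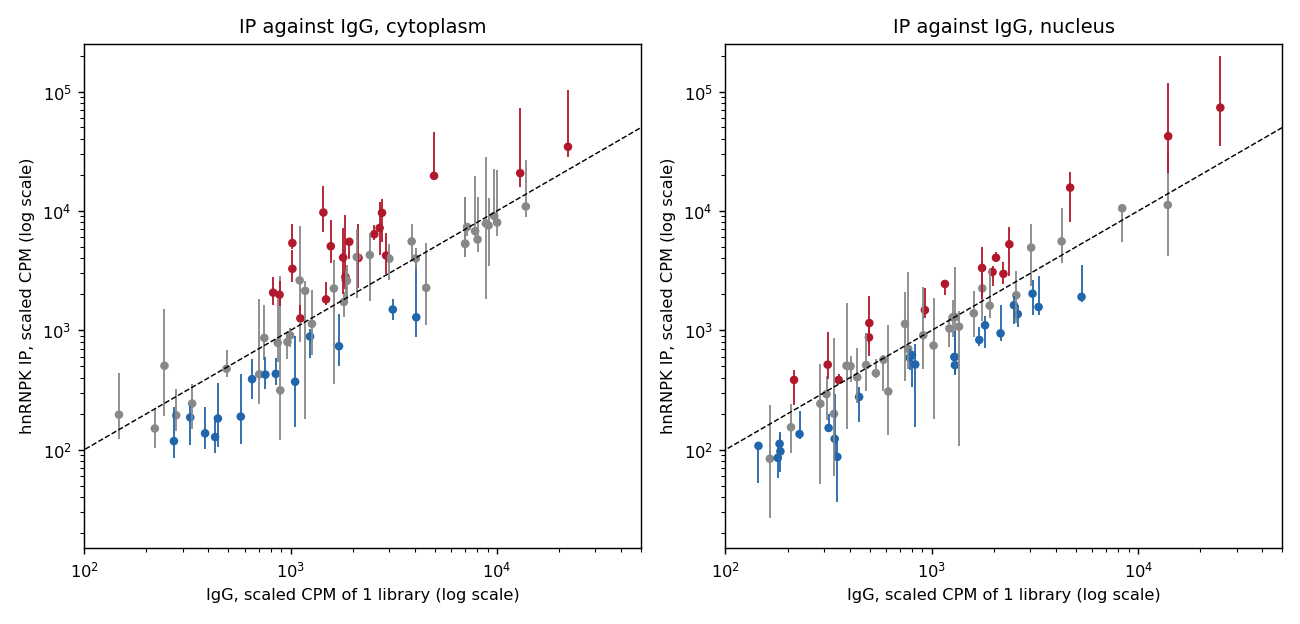
Scaled CPM of the 68 clusters in hnRNPK IP against control IgG, cytoplasm left and nucleus right, log scales; points are medians and bars the range of 6 IP units, and the dashed line marks equal level. Red clusters lie above IgG in all 6 units (19 in the cytoplasm, 16 in the nucleus) and blue ones below it in all 6 (15 and 23).

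Furthest above IgG in the cytoplasm was uc009dts.1, with 1442 scaled CPM from 636 counts in IgG and 6691 to 16166 in IP, a median of 9702. The log2 difference of the mean was 2.79. It was followed by uc008rnf.1 with 1020 scaled CPM from 450 counts in IgG and 4800 to 7728 in IP. Cluster uc008ppe.1 was furthest below, with 431 scaled CPM in IgG and 94.7 to 184 in IP, before uc009nin.2 with 1052 in IgG and 154 to 900 in IP. For each of these the 6 IP units lay on one side of IgG.

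In the nucleus the clusters furthest above IgG were uc009sgd.1, with 13974 scaled CPM in IgG and 20894 to 117532 in IP, and uc029sug.1, with 25005 in IgG and 34947 to 198754 in IP. In IgG itself both stood far above total RNA, by log2 differences of 2.84 for uc009sgd.1 and 3.48 for uc029sug.1 against ob/ob and high-fat total RNA in the nucleus, and 2.74 and 3.30 in the cytoplasm. Beads with control IgG thus also held both clusters far above their level in total RNA. Furthest below IgG were uc012hdm.1, with 348 scaled CPM in IgG and 36.8 to 121 in IP, and uc009vey.1, with 5316 in IgG and 1718 to 3555 in IP.

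Many of the clusters that were low in IP were low in IgG too. Relative to total RNA of ob/ob and high-fat mice, the median of the 68 was -0.58 for cytoplasmic IgG and -1.70 for nuclear IgG on the log2 scale, against -0.29 and -0.07 over all clusters. IgG lay below total RNA for 53 of the 68 on the cytoplasmic side (60.6% of all clusters) and 58 on the nuclear side (52.4% of all). Set directly against IgG with TMM scaling, the mean of IP had a median log2 difference of 0.00 in the cytoplasm and -0.25 in the nucleus over the 68. All clusters had 0.40 and -0.02. The lowest count of the 68 in the cytoplasmic IgG library was 65 and the median 703, which limits the precision of single clusters there.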

How the data were processed

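Values were deposited per isoform. The authors' tables give estimated counts (expected counts) and TPM from RSEM 1.2.8, and the deposited transcript lengths. The other tools named are TopHat2 2.0.10, Bowtie2 2.1.0, SAMtools and bcl2fastq on mouse build mm10, and their roles are not stated (per the submitters' processing notes). No strand setting is given in the sources used here.

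Expected counts were summed per numbered cluster and rounded for the models. TPM was summed per cluster and used for levels per length only. The 2 total RNA libraries of each replicate number were summed to 1 unit, giving 18 units, though the labels do not call them runs of the same RNA. P-values measure the spread between units, which may be technical. IgG libraries were taken by their titles, although another of their labels names the molecule as bound to hnRNPK.

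Models were quasi-likelihood fits of edgeR 4.0.16 (R 4.3.3, limma 3.58.1) with TMM scaling, filterByExpr and Benjamini-Hochberg adjustment over all clusters tested, at 0.05. Total RNA was fitted on 6 units (15487 clusters) and IP on 18 units (13516 clusters). Standard errors were derived as the size of the log2 fold change over the square root of F. For IgG, log2 CPM values had a prior count of 1. Alternatives were DESeq2 1.42.0, other scaling and filters, the replicate number as a block, each library as a replicate and leaving out each unit. The differences of differences were added after the data had been seen. The models were tested on simulated counts.

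Named clusters are the 4 highest by TPM, those next to the threshold, and for each comparison the 2 highest and 2 lowest log2 fold changes among calls with the same direction in every pair of units (for descriptions, the 2 highest and 2 lowest). Members and lists were chosen with earlier results of these data known. Lists of liver genes and cell type markers were drawn up but not used here, and the tissue was not checked by markers, because no table used here links the identifiers to symbols. Sequences are not shown for the same reason.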

Additional observations from a re-analysis of the deposited data

Results flagged for a closer look

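Among the 4 libraries of high-fat total RNA, 1 library stood apart for 2 clusters. In the first library of replicate 2, uc029sug.1 had 2311 CPM, where the other 3 libraries had 1566 to 1682 CPM. In the same library uc009sgd.1 had 2115 CPM, against 1423 to 1535 CPM in the others. Its partner library of replicate 2 lay with the rest. Gaps were judged by Dixon's criterion in 78 groups of 4 or 6 samples, and chance flags about 1 in 20 such groups.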

How the results depend on the processing

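No named cluster changed direction under the alternatives run for it, but the ob/ob total RNA median, near 0, changed sign, and splits of higher and lower calls shifted with library size only. Of 163 values for counts and medians, 119 stayed within their margin and 44 moved. For single named clusters, 480 of 551 values stayed, 62 lost the threshold and 9 described values moved beyond the spread of replicates. DESeq2 called 18 of the 68 for total RNA ob/ob against high-fat, 11 and 21 in cytoplasmic IP for high-fat against wild type and ob/ob against high-fat, and 16 and 18 for the same in nuclear IP; over all 31469 clusters it called 1426, 1102 and 1156, and 1473 and 960. With each total RNA library as its own replicate, 34 were called in total RNA, with 4885 of all 14564. Library size only gave 8 (cytoplasm) and 8 (nucleus) for ob/ob against wild type, 1 for high-fat against wild type in the cytoplasm, 17 for ob/ob against high-fat in the nucleus, 11 and 2 above IgG, and a high-fat total RNA median of -0.017. No filter gave 11 in cytoplasmic and 13 in nuclear IP for ob/ob against high-fat, with 520 and 444 of all 20078. Thresholds of 1000 and 3000 CPM take in 108 and 39 clusters.

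Leaving out each unit in turn gave 0 in total RNA. In cytoplasmic IP it gave 3 to 14 for ob/ob against wild type, 0 to 11 for high-fat against wild type and 1 to 7 for ob/ob against high-fat. In nuclear IP the same gave 3 to 15, 0 to 5 and 1 to 3. It gave 56 to 62 for nuclear against cytoplasmic IP, 48 to 50 and 61 to 63 for cytoplasmic and nuclear IP against total RNA, 66 to 69 clusters at the threshold, and total RNA medians of -0.123 to 0.0709 in ob/ob and -0.20 to -0.08 in high-fat. A left-out unit leaves 1 in its group, which is assumed to vary like the others. Fewer of all clusters were also called in these fits of total RNA and in most of those of IP between mouse groups.

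Same-numbered units deviated together within wild type (r of 0.35 to 0.41 across clusters) and ob/ob (0.26 to 0.32), not within high-fat (-0.12 to 0.094), nor across mouse groups (-0.28 to 0.097), so by this measure the high-fat numbers do not pair and the fits carry no block. With the replicate block 4 were called for high-fat against wild type in cytoplasmic IP, with 336 of all 13516. The other counts between groups or kinds of library stayed within 1.5 times. Added after the data were seen, the block (number within mouse group) gave 1 of the 68 for IP over total RNA, ob/ob minus high-fat, in each compartment (6 and 7 of all 13516), where 0 passed without it. The cluster was uc007mut.1, named after its values were seen, with log2 differences of 1.79 (cytoplasm, adjusted p = 0.0212 in edgeR) and 1.84 (nucleus, 0.0109), against 1.76 (0.608) and 1.79 (0.627) without the block. The differences between compartments (ob/ob minus wild type, high-fat minus wild type, ob/ob minus high-fat) gave 0 of the 68 with it, with 17, 19 and 6 at an unadjusted p under 0.05 where 1844, 2343 and 825 of all clusters were. The cytoplasmic IgG library, with 338469 counts, sets the limit of depth.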
